A study of Mus musculus with 10 samples.

Results

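The synaptonemal complex and HORMA domain genes are 8 genes, chosen by name: Sycp1, Sycp2, Sycp3, Syce1, Syce2, Tex12, Hormad1 and Hormad2. All 8 are listed among the 36806 genes of each deposited table. No rule on measured values made the choice, but it was made with earlier results of these data known. The synaptonemal complex is the protein zipper that holds paired homologous chromosomes together during the first meiotic prophase. Each chromosome first builds an axis of cohesins, SYCP2, SYCP3 and the HORMA domain proteins. SYCP1 filaments then join the axes of both homologs, and the central element proteins SYCE1, SYCE2 and TEX12 lock the filaments at the midline. In the mouse testis the genes are known for switching on as spermatogonia enter meiosis, and loss of most of them leaves male mice sterile.

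The libraries came from male C57BL/6 mice, Ago4-/- or Ago4+/+ littermates. Ago4 encodes one of the Argonaute proteins, which carry small RNAs to their targets. For each genotype there was 1 mRNA library from pachytene spermatocytes and 1 from leptotene/zygotene spermatocytes, both from adults of 70 days, and 1 from each age of whole testis, day 3 and day 8. The 4 deposited tables are named for day 3, pre-meiotic, leptotene/zygotene and pachytene material, and no label gives the age of the pre-meiotic one. Day 8 whole testis is the only mRNA material that no table is named for. Each table compares a second condition with a first condition, and no source used here says which of them is Ago4-/-. Every fold below is therefore second over first, without a genotype, and directions in different tables may not stand for the same genotype. Levels are FPKM, fragments scaled to transcript length and to the total mapped, so that genes can be compared within a column. With 1 library per genotype and stage there was no replicate error. The errors given are implied errors, the size of the authors' log2 fold divided by the size of their test statistic, and they cover the counting and modelling error of 2 libraries only. A gene is called changed at an authors' q-value of 0.05 or less.

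The materials were checked against marker genes. Ago4, listed as Eif2c4, had 1.23 and 0.897 FPKM in the second and first conditions of the day 3 table, 3.34 and 2.53 FPKM in the pre-meiotic table, 3.26 and 1.67 FPKM in the leptotene/zygotene table and 12.1 and 4.37 FPKM in the pachytene table. These values were used to assign no genotype. In the leptotene/zygotene table the 9 markers of that stage summed to 95.2 FPKM in the second condition and 84.0 FPKM in the first, against 161 and 246 FPKM in the pre-meiotic table. Both columns were below the pre-meiotic ones for 6 of the 9, among them Dmc1, which encodes the meiotic recombinase, with 3.73 and 3.02 FPKM against 12.9 and 24.1 FPKM. Spo11, which encodes the enzyme that cuts DNA at the start of recombination, was above them, with 12.0 and 11.01 FPKM against 1.53 and 4.11 FPKM, and Rad51ap2 and Msh5 overlapped. The same table held high levels of spermatid genes, with 18800 FPKM of the protamine gene Prm2 in the second condition and 14183 FPKM in the first, and the 7 spermatid markers summed to 56674 FPKM in the second condition and 47843 FPKM in the first. In the pachytene table those 7 markers summed to 9482 and 7425 FPKM, and the 7 pachytene markers to 9522 and 9516 FPKM. The same 7 pachytene markers summed to 7701 and 7979 FPKM in the leptotene/zygotene table, against 72.6 and 84.0 FPKM in the pre-meiotic table. High spermatid and pachytene marker levels in part go against the leptotene/zygotene label, and high spermatid levels in part against the pachytene label. Both tables are called by their names only.

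Promoter sequence was read for all 8 genes, since several of them moved together in the pre-meiotic table. The windows are the 250 bases before each RefSeq transcription start in build GRCm38.p6, 10 windows for the 8 genes. Of these, 5 are shown 5′ to 3′ in the direction of transcription: 4 genes that hold a CACGTG word, and Sycp2, which holds none. The capitals mark CACGTG, an E-box that dimers of MAX and related helix-loop-helix proteins bind, and GCGGGAA, a word of the kind that E2F proteins bind, searched on both strands.
Sycp2, chr2:178407659-178407908, minus strand: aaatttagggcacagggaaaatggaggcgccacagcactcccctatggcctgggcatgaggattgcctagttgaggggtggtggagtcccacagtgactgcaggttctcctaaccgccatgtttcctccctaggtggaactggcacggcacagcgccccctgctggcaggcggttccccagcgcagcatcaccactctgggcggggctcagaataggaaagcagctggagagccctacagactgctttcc
Sycp3, chr10:88459337-88459586, plus strand: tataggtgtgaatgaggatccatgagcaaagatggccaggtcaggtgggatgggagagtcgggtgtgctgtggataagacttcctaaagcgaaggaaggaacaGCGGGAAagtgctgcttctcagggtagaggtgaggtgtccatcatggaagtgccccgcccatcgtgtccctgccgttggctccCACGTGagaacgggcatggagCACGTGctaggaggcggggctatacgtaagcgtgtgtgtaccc
Sycp1, chr3:102936101-102936350, minus strand: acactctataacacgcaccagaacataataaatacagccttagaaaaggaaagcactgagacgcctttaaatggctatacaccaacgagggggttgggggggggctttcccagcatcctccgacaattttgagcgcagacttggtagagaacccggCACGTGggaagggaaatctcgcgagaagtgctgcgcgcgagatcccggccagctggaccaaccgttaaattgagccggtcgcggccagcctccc
Tex12, chr9:50561269-50561518, minus strand: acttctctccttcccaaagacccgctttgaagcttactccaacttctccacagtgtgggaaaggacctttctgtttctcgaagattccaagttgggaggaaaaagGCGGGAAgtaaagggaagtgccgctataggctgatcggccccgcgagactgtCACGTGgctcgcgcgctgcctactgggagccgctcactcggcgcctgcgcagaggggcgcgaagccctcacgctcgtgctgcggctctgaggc
Hormad1, chr3:95559427-95559676, plus strand: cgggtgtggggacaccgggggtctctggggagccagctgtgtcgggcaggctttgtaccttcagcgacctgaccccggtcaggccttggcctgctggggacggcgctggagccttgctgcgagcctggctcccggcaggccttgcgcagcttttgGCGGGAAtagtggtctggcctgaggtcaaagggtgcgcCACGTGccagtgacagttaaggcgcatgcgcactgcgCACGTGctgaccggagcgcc

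CACGTG was found in a window of 5 of the 8 genes, Sycp1, Sycp3, Syce2, Tex12 and Hormad1, against 6.02% of the 32851 windows of the same length in the table and 6.86% of its 27025 genes. GCGGGAA was found for 4 of the 8 genes, Sycp3, Syce2, Tex12 and Hormad1, against 3.82% of all windows and 4.38% of all genes. These 4 genes hold both words in 1 window, which 0.338% of all windows and 0.374% of all genes do. Sycp3 and Hormad1 hold CACGTG at 2 places each, and 0.429% of windows hold it at 2 or more. The word starts 64 and 43 bases before the start site of Sycp3, 94 bases before that of Sycp1, 93 bases before that of Tex12, and 57 and 20 bases before that of Hormad1. The Syce2 matches lie in the window of the second of its 2 listed starts, with CACGTG at 88 bases and GCGGGAA at 34 bases. No match to either word was found for Sycp2, Syce1, Hormad2 or the first start of Syce2. TGACGTCA, the word that CREB-family factors bind, was found in 0 of the 8 genes, against 1.55% of all windows and 1.77% of all genes. The GC content of the 10 windows ran from 53.2% for Syce1 to 68% for Hormad1, against a median of 52.4% over all windows. No CACGTG match overlapped a GCGGGAA match. The words were chosen after the sequences had been seen, so the counts beside the shares of all windows and genes are no test. A match is a description of letters, not of binding.

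**Figure D1:**
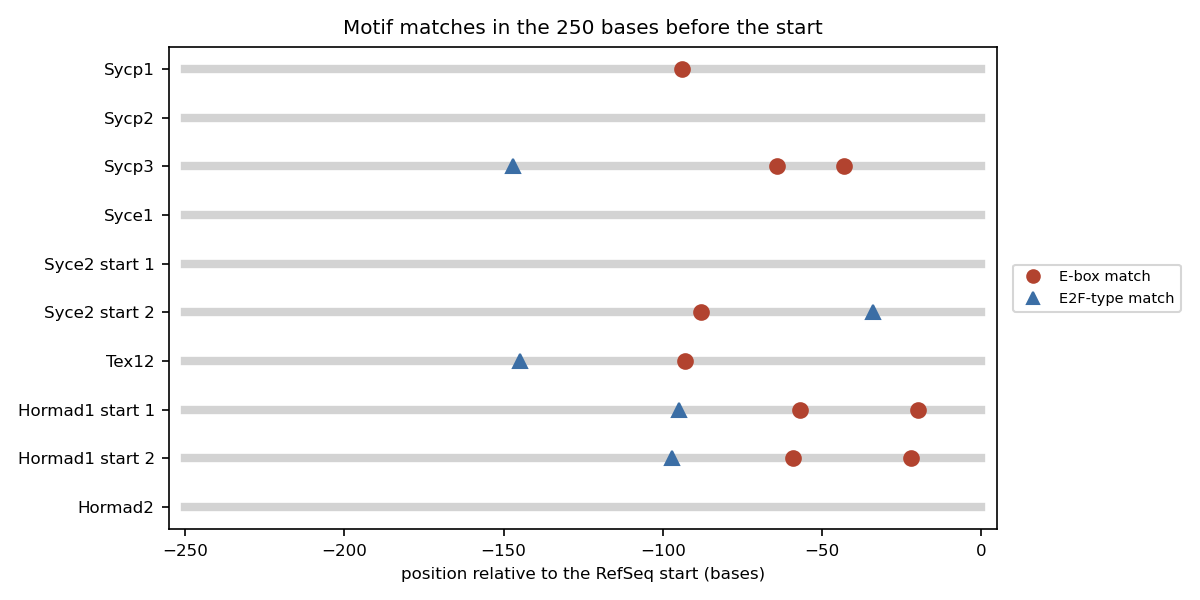
Positions of CACGTG and GCGGGAA in the promoter windows of the 8 genes, as distance in bases before the RefSeq start on the horizontal axis, with 1 row per window. Matches fall between 147 and 20 bases before the start, and the windows of Sycp2, Syce1, Hormad2 and the first start of Syce2 are empty.

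Across the 4 tables, 5 of the 8 genes were called in at least 1 table, every one of these calls was lower in the second condition, and Syce1, Syce2 and Hormad1 were called in none. At day 3 the calls were Sycp2 and Hormad2, in the pre-meiotic table Sycp1, Sycp2, Sycp3 and Tex12, and at pachytene Sycp1 and Sycp2. No member was called in the leptotene/zygotene table. The count of 2 of 8 at day 3 stands beside 10.4% of the 22590 tested genes called lower and 5.03% called higher. The pre-meiotic count of 4 of 8 stands beside 0.712% of 18968 tested genes called lower and 0.48% called higher. At pachytene 2 of 8 were called lower, beside 1.05% of 20730 tested genes called lower and 0.656% called higher. For leptotene/zygotene material 0 of 8 were called by Cuffdiff, beside 1.39% of 18368 tested genes called lower and 0.817% called higher. There 2 members had an unadjusted Cuffdiff p under 0.05, Sycp3 lower and Syce2 higher. Other members with such a p but no call were Syce1 and Hormad1 in the pre-meiotic table, both lower, and Tex12 at pachytene, higher. In whole testes, fewer cells of a type and less RNA per cell cannot be told apart. All 8 genes were tested in every table and reached 1 FPKM in at least 1 condition of each.

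**Figure D2:**
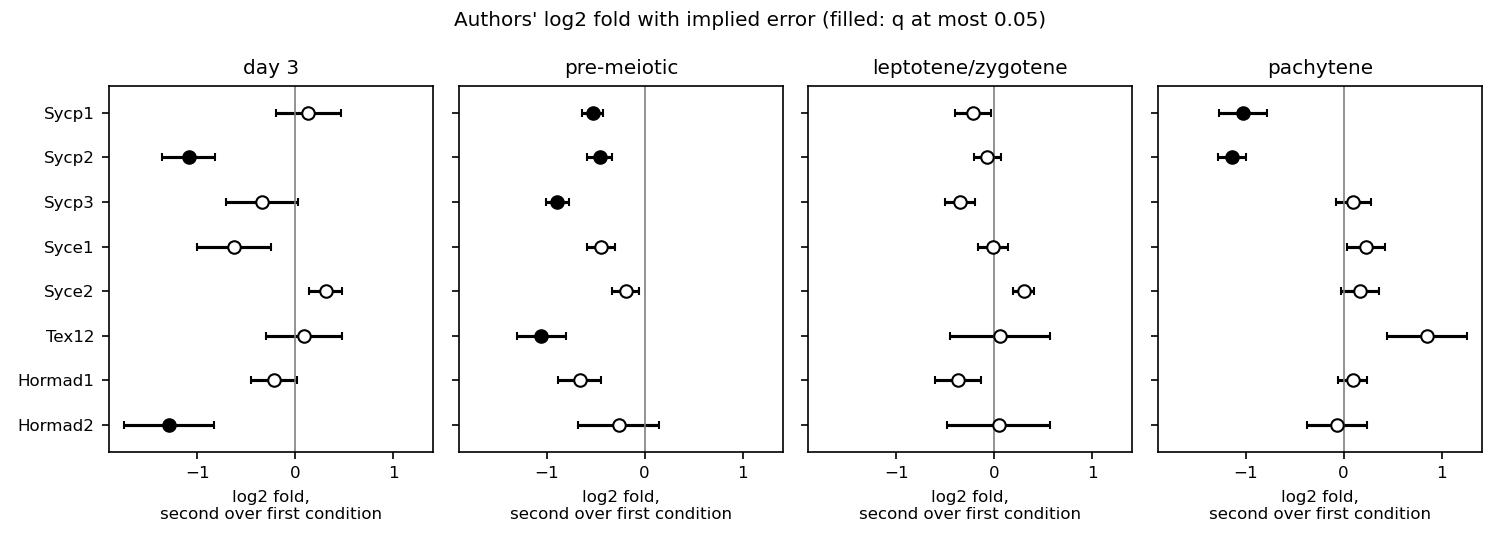
Log2 fold of the second over the first condition for the 8 genes in the 4 tables, from the authors' deposited tables, with the implied error as bars and filled points for genes called at a q-value of at most 0.05. The 8 called points lie below 0, and in the pre-meiotic table all 8 genes lie below 0.

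The axis core genes Sycp2 and Sycp3 encode partner proteins that form the lateral elements. Sycp2 had 1.65 FPKM in the second condition and 3.50 FPKM in the first at day 3, 30.1 and 41.4 FPKM in the pre-meiotic table, 56.0 and 58.7 FPKM in the leptotene/zygotene table, and 74.5 and 164 FPKM in the pachytene table. The second condition was the lower in each table, and in the pachytene table it had the largest gap in FPKM of this gene. By the authors' deposited tables Sycp2 fell by 1.09 ± 0.27 on the log2 scale at day 3 (q = 0.000753), by 0.46 ± 0.13 in the pre-meiotic table (q = 0.0374) and by 1.14 ± 0.14 at pachytene (q = 4.13e-12), where ± is the implied error. For leptotene/zygotene material the authors' deposited table gave a log2 fold of -0.07 ± 0.14 (q = 0.913).

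Sycp3 had 3.99 and 5.03 FPKM in the second and first conditions of the day 3 table, 51.3 and 95.1 FPKM in the pre-meiotic table, 56.6 and 72.0 FPKM in the leptotene/zygotene table, and 205 and 191 FPKM in the pachytene table. The gap was widest in the pre-meiotic table, and at pachytene the second condition was slightly the higher. Sycp3 fell by 0.89 ± 0.12 on the log2 scale in the pre-meiotic table (q = 1.21e-10, the authors' deposited table). The other log2 folds in the authors' deposited tables were -0.34 ± 0.37 at day 3 (q = 0.593), -0.35 ± 0.15 at leptotene/zygotene (q = 0.315) and 0.10 ± 0.18 at pachytene (q = 0.916). At pachytene the partners thus differed, with the log2 fold of Sycp2 minus that of Sycp3 at -1.24 ± 0.23, the 2 implied errors combined. The Sycp3 locus of the tables, chr10:87915489-87966818 in a build that no source used here names, is listed with the same coordinates for Chpt1, a gene of phospholipid synthesis, and reads of overlapping genes cannot be told apart by strand here. Chpt1 had 29.1 and 29.6 FPKM in the second and first conditions at day 3 and 41.3 and 44.4 FPKM in the pre-meiotic table. It had 133 and 94.1 FPKM at leptotene/zygotene and 56.8 and 42.1 FPKM at pachytene, and was called in none of the 4 tables. At leptotene/zygotene the log2 fold of Chpt1 was 0.50 ± 0.17 (q = 0.0912, the authors' deposited table), opposite in direction to that of Sycp3. The part of this overlap in the Sycp3 levels was not tested.

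Sycp1, which encodes the transverse filament, had 2.67 and 2.43 FPKM in the second and first conditions of the day 3 table, 34.2 and 49.3 FPKM in the pre-meiotic table, 24.4 and 28.3 FPKM in the leptotene/zygotene table, and 31.2 and 63.5 FPKM in the pachytene table. Its values were close at day 3 and farthest apart at pachytene. In the authors' deposited tables Sycp1 fell by 0.53 ± 0.10 on the log2 scale in the pre-meiotic table (q = 0.000193) and by 1.03 ± 0.24 at pachytene (q = 0.00324). The authors' deposited tables gave log2 folds of 0.13 ± 0.33 at day 3 (q = 0.836) and -0.22 ± 0.19 at leptotene/zygotene (q = 0.695). At pachytene the log2 fold of Sycp1 minus that of Sycp2 was 0.11 ± 0.28, within the combined implied error, while Sycp1 minus Sycp3 was -1.12 ± 0.30.

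The central element genes held the highest member level in both columns of the day 3, leptotene/zygotene and pachytene tables. Syce1, whose protein binds the midline ends of the filaments, had 3.02 and 4.65 FPKM in the second and first conditions of the day 3 table, 28.3 and 38.6 FPKM in the pre-meiotic table, 291 and 293 FPKM in the leptotene/zygotene table, and 417 and 356 FPKM in the pachytene table. None of these differences was called, and the leptotene/zygotene values were nearly equal. The authors' deposited tables gave Syce1 log2 folds of -0.62 ± 0.37 (q = 0.275), -0.45 ± 0.14 (q = 0.115), -0.01 ± 0.15 (q = 0.992) and 0.23 ± 0.20 (q = 0.711) in stage order.

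Syce2, whose protein forms fibres with TEX12 along the midline, had 46.8 and 37.7 FPKM in the second and first conditions of the day 3 table, 69.0 and 78.9 FPKM in the pre-meiotic table, 475 and 385 FPKM in the leptotene/zygotene table, and 123 and 109 FPKM in the pachytene table. It was the highest member at day 3 and at leptotene/zygotene in both columns. In stage order, its log2 folds in the authors' deposited tables were 0.31 ± 0.17 (q = 0.216), -0.19 ± 0.14 (q = 0.639), 0.30 ± 0.11 (q = 0.129) and 0.17 ± 0.19 (q = 0.823). The tables list the same locus for Syce2 and Gcdh, which encodes the mitochondrial glutaryl-CoA dehydrogenase, so part of either gene's reads may be counted for the other. Gcdh had 34.8 and 38.1 FPKM at day 3, 31.0 and 23.0 FPKM in the pre-meiotic table, 0.704 and 6.10 FPKM at leptotene/zygotene and 2.46 and 3.17 FPKM at pachytene. In the leptotene/zygotene table, where Syce2 was at its highest, Gcdh fell by 3.11 ± 0.71 on the log2 scale (q = 0.00165, the authors' deposited table). The part of this overlap in the Syce2 levels was not tested.

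Tex12 had 9.31 and 8.73 FPKM in the second and first conditions of the day 3 table, 19.7 and 40.8 FPKM in the pre-meiotic table, 6.87 and 6.61 FPKM in the leptotene/zygotene table, and 39.4 and 21.8 FPKM in the pachytene table. The second condition was the lower in the pre-meiotic table and the higher at pachytene. Tex12 fell by 1.05 ± 0.25 on the log2 scale in the pre-meiotic table (q = 0.00458, the authors' deposited table). The pachytene value in the authors' deposited table was a log2 fold of 0.85 ± 0.41, not called (q = 0.395), and at day 3 and leptotene/zygotene the values were 0.09 ± 0.38 (q = 0.907) and 0.06 ± 0.51 (q = 0.988). In the pre-meiotic table the log2 fold of Syce2 minus that of Tex12 was 0.86 ± 0.28, although their proteins form 1 complex. At pachytene, Sycp2 minus Tex12 was -1.99 ± 0.43, the widest gap between any pair of members in that table.

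Hormad1 and Hormad2 encode axis proteins that mark chromosome stretches not yet synapsed and leave as the complex forms. Hormad1 had 2.73 and 3.17 FPKM in the second and first conditions of the day 3 table, 10.5 and 16.6 FPKM in the pre-meiotic table, 11.1 and 14.3 FPKM in the leptotene/zygotene table, and 47.4 and 44.4 FPKM in the pachytene table. Its log2 folds in the authors' deposited tables were -0.21 ± 0.23 (q = 0.593), -0.66 ± 0.22 (q = 0.128), -0.37 ± 0.23 (q = 0.588) and 0.09 ± 0.15 (q = 0.900) in stage order, none of them called. Hormad2 was the lowest member at day 3, in the pre-meiotic table and at pachytene, in both columns. It had 0.620 and 1.51 FPKM at day 3, 10.1 and 12.1 FPKM in the pre-meiotic table, 7.30 and 7.08 FPKM at leptotene/zygotene and 17.4 and 18.2 FPKM at pachytene. At day 3 Hormad2 fell by 1.29 ± 0.46 on the log2 scale (q = 0.0364, the authors' deposited table), between levels near the 1 FPKM floor. The later log2 folds of Hormad2 in the authors' deposited tables were -0.27 ± 0.41 (q = 0.881), 0.04 ± 0.53 (q = 0.988) and -0.07 ± 0.30 (q = 0.969).

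**Figure D3:**
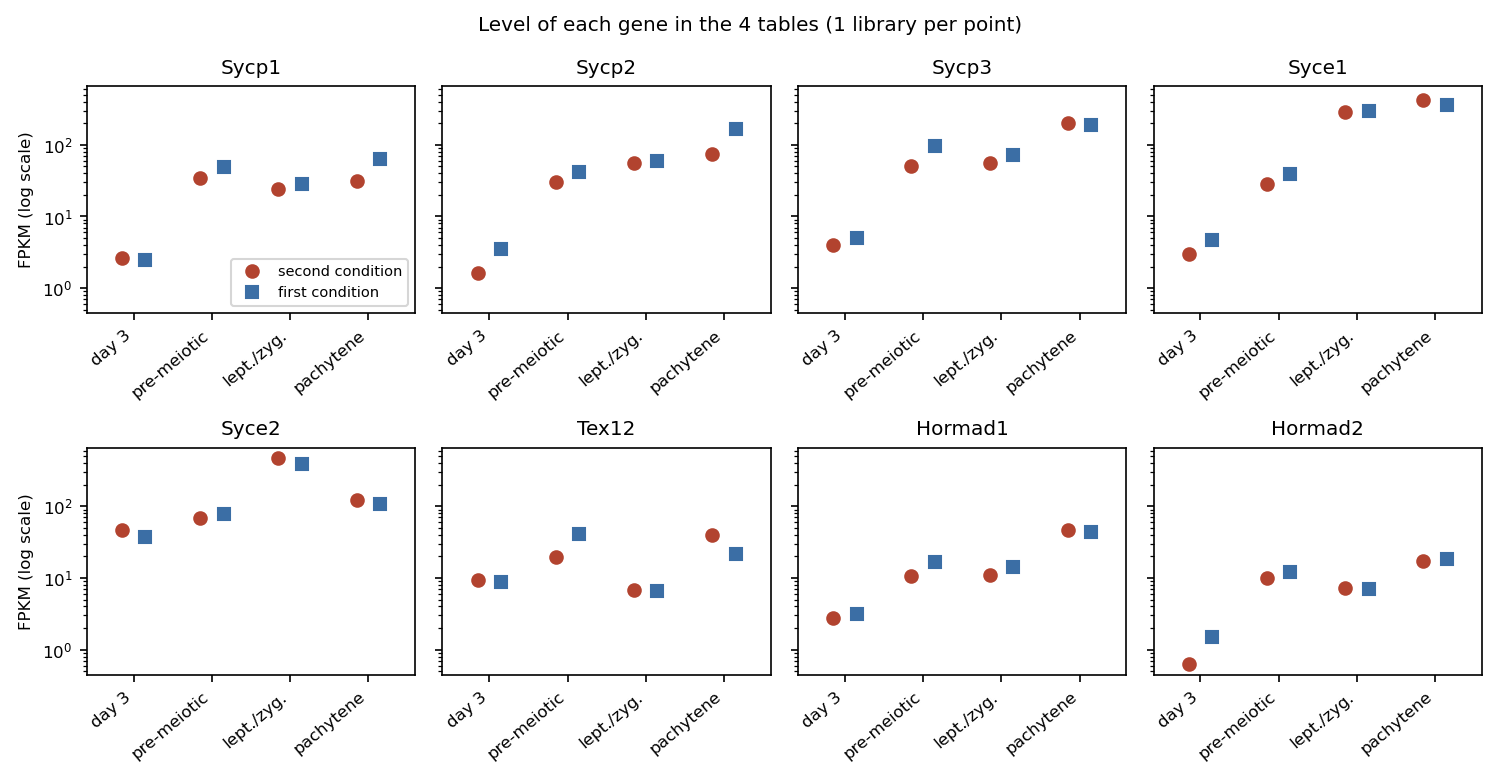
FPKM on a log axis of the 8 genes in the second and first conditions of the 4 tables, in stage order, with 1 panel per gene and no error bars because each point is 1 library. All 8 genes are higher in the pre-meiotic than in the day 3 table, and Syce2 and Tex12 move in opposite directions between the last 3 tables.

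Levels were set side by side across the tables, which were normalized separately, so no test was made. From day 3 to the pre-meiotic table the columns of all 8 genes were higher without overlap. The ratio of summed FPKM was 16.4 for Sycp1, 16.2 for Sycp3, 13.9 for Sycp2, 10.4 for Hormad2, 8.72 for Syce1, 4.59 for Hormad1, 3.35 for Tex12 and 1.75 for Syce2. Syce2 and Tex12, with the smallest ratios, were the highest members at day 3. In the leptotene/zygotene table Syce1 stood at 8.74 times and Syce2 at 5.82 times the pre-meiotic sum, and Sycp2 at 1.60 times. Sycp1, Hormad2 and Tex12 were lower there, at 0.631, 0.647 and 0.223 times, and the ranges of Sycp3 and Hormad1 overlapped. At pachytene 7 of the 8 genes were above the leptotene/zygotene levels, from 1.32 times for Syce1 to 4.54 times for Tex12, while Syce2 stood at 0.269 times. Within the central element, the level of Syce2 over that of Tex12 was 69.1 in the second condition and 58.3 in the first at leptotene/zygotene, against 3.11 and 5.01 at pachytene. The high spermatid and pachytene markers of the leptotene/zygotene table stand beside these steps, and their part was not tested.

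The order of the 8 levels was led by Syce2 in the second condition of the pre-meiotic table (69.0 FPKM) and by Sycp3 in the first (95.1 FPKM). In that table the log2 folds of Sycp3 and Syce2 differed by -0.70 ± 0.18. The highest member was 75.4 times the lowest in the second condition and 24.9 times in the first at day 3. In the pre-meiotic table it was 6.85 and 7.84 times, at leptotene/zygotene 69.1 and 58.3 times, and at pachytene 24.0 and 19.6 times. At pachytene Syce1 led in both columns, Sycp3 came next, and Sycp2 ranked below Syce2 in the second condition and above it in the first. Neighbours such as Sycp3 and Sycp2 at leptotene/zygotene, with 56.6 and 56.0 FPKM in the second condition, were too close to be ordered without replicates.

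With a pseudocount of 0.1 FPKM, the median log2 fold of the 8 genes was -0.27 at day 3, -0.49 in the pre-meiotic table, -0.04 at leptotene/zygotene and 0.10 at pachytene. Over all genes at 1 FPKM or more in at least 1 condition it was 0.05, -0.01, -0.07 and 0.03. The number of members below 0 was 5, 8, 5 and 3 of 8 in stage order. At day 3, 2 members (Sycp2 and Hormad2) were at least 2-fold lower, beside 7.78% of genes at that floor. In the pre-meiotic material it was 1 member (Tex12), beside 4.49%. For leptotene/zygotene material it was 0, beside 7.39%, and at pachytene 2 (Sycp1 and Sycp2), beside 6.17%. With a pseudocount of 1 FPKM, or centred on either set of germ cell markers, the day 3 count was 0. For the leptotene and zygotene set the centre was the median of all 9 markers, with no floor. No member was at least 2-fold higher in any table, where 3.8%, 4.21%, 6.36% and 4.48% of genes were.

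In the pre-meiotic table other meiotic genes moved beside the members. Of the 9 leptotene and zygotene markers 4 were called lower and 9 were below 0, with a median log2 of -0.76 and sums of 161 FPKM in the second condition and 246 FPKM in the first. Stra8, which licenses entry into meiosis, had 78.6 and 123.8 FPKM in the second and first conditions (log2 -0.66, q = 8.29e-10, the authors' deposited table). Of the 4 pan-germline markers, Dazl and Tex101 were called lower, and the 4 summed to 415 and 517 FPKM. The 9 markers of undifferentiated spermatogonia had a median of 0.41 with 0 called by Cuffdiff, sums of 133 and 120 FPKM, and none at 0. Markers of red blood cells were higher in the second condition, with 4 of 4 called and sums of 724 and 455 FPKM, and the 8 measured Sertoli markers summed to 2905 and 2767 FPKM. Centred on the median of the leptotene and zygotene markers, the log2 folds were 0.24 for Sycp1, 0.31 for Sycp2, -0.13 for Sycp3 and -0.28 for Tex12, the 4 called genes. They were 0.32 for Syce1, 0.57 for Syce2, 0.11 for Hormad1 and 0.50 for Hormad2, so the direction turned for 6 of the 8 members, all but Sycp3 and Tex12. Centred on the mean of the germline markers Ddx4, Dazl and Mael (-0.23), all of the 8 members but Syce2 (0.04) stayed below 0. Tex101 was left out of that centring. The median of all 4 pan-germline markers was -0.28, lower than the log2 fold of Hormad2 (-0.26) as well as that of Syce2. Whether the marker genes have a part in the members' differences was not tested.

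At day 3, 6 of the 9 undifferentiated spermatogonia markers were called lower, with sums of 60.7 FPKM in the second condition and 113 FPKM in the first. The leptotene and zygotene markers also had 3 of 9 called lower at day 3, with sums of 61.3 and 75.5 FPKM. Among the 7 of these markers at 1 FPKM or more, 6 were below 0 and 1 above, and 4 were at least 2-fold lower. Their median log2 fold was -1.18, beside -0.37 over all 9 markers and -0.27 for the members. None of the 4 pan-germline markers was called there, and their sums were 66.4 and 90.6 FPKM. At pachytene 3 of 5 peritubular myoid and 3 of 6 endothelial markers were called higher, with sums of 26.7 and 11.5 FPKM and of 11.1 and 4.03 FPKM. At leptotene/zygotene the 4 red blood cell markers and 4 of 5 peritubular myoid markers were called higher, with sums of 333 and 38.7 FPKM and of 33.5 and 7.84 FPKM. Their part in the member values was not tested.

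The partner genes of synapsis and the chromosome axis, 26 listed and 25 found in the tables, gave the surrounding of the members. They share Msh5 with the leptotene and zygotene markers, Mael with the pan-germline markers and Hspa2 with the pachytene markers. Called lower were 3 of 25 tested at day 3, a share near the 10.4% of all tested genes. In the other tables it was 3 of 24 in the pre-meiotic table beside 0.712%, 0 of 24 at leptotene/zygotene beside 1.39%, and 2 of 25 at pachytene beside 1.05%. No partner was called higher in any table. At leptotene/zygotene 2 partners had an unadjusted p under 0.05 by Cuffdiff, Msh5 and Rnf212, the second of them listed at 0 in the first condition and so not among the 24. The partner medians were -0.18, -0.37, -0.14 and -0.01 in stage order. Smc1b, the meiotic cohesin subunit of the axis, was called in the same 3 tables as Sycp2. It had 2.33 and 4.52 FPKM in the second and first conditions at day 3, 42.1 and 62.7 FPKM in the pre-meiotic table, 101 and 122 FPKM at leptotene/zygotene, and 63.5 and 122 FPKM at pachytene. Smc1b fell by 0.96 ± 0.33 at day 3 (q = 0.0278), by 0.57 ± 0.10 in the pre-meiotic table (q = 4.29e-06) and by 0.95 ± 0.21 at pachytene (q = 0.00128) on the log2 scale of the authors' deposited tables. Smc3, a cohesin subunit of all dividing cells, had 12.5 and 25.1 FPKM at pachytene and was called lower there (implied error 0.27 on the log2 scale, q = 0.0184, the authors' deposited table).

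Tex11, an X-linked gene that promotes synapsis and crossing over, had 1.44 and 2.44 FPKM in the second and first conditions at day 3 and 38.1 and 54.5 FPKM in the pre-meiotic table. It fell by 0.76 ± 0.23 (q = 0.00977) and by 0.52 ± 0.08 (q = 2.03e-07) on the log2 scale of the authors' deposited tables. Ccdc36, now Iho1, whose protein binds HORMAD1 and is needed for meiotic DNA breaks, had 8.66 and 15.5 FPKM in the pre-meiotic table and fell by 0.84 ± 0.16 (log2, q = 0.000125, the authors' deposited table). Sun1, which ties telomeres to the nuclear envelope, had 64.9 and 102 FPKM at day 3 and fell by 0.65 ± 0.13 (log2, q = 1.18e-05, the authors' deposited table). At leptotene/zygotene the partners farthest from 0 were Rnf212, a crossover factor, with 4.91 FPKM in the second condition and listed at 0 in the first, and the cohesin gene Smc1a, with 4.34 and 1.95 FPKM (log2 1.15 ± 0.85, q = 0.640, the authors' deposited table).

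**Figure D4:**
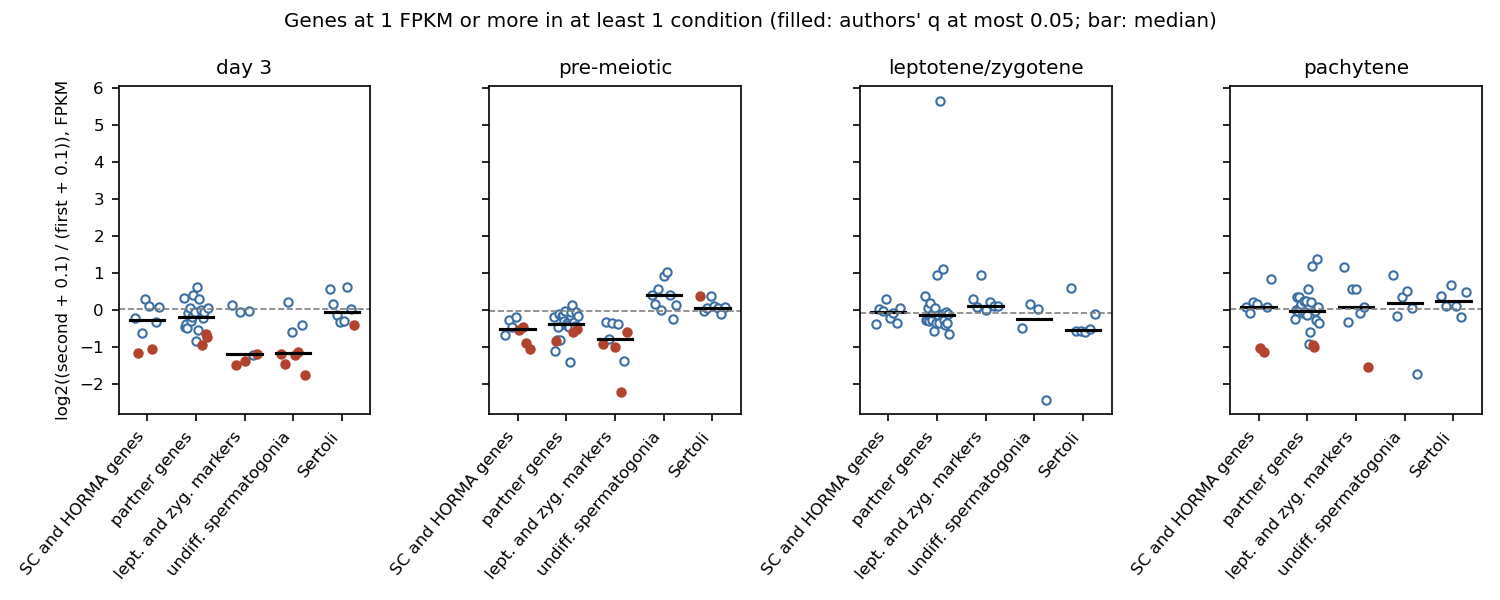
Log2((second + 0.1)/(first + 0.1)) FPKM of the 8 members (SC and HORMA genes), the partner genes and 3 marker lists at 1 FPKM or more in at least 1 condition, with 1 panel per table, 1 point per gene (filled where called), the list's median as a bar and the median of all genes as a dashed line. The pre-meiotic medians are -0.49 for the members, -0.37 for the partners and -0.76 for the leptotene and zygotene markers. The partner point near the top of the leptotene/zygotene table is Rnf212, listed at 0 in the first condition, so its height depends on the pseudocount.

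Locus span went with the calls in part of the tables. At day 3, of genes at 1 FPKM or more in both conditions, 25.3% of those with a locus of 50 kb or more were called lower, against 9.40% at 10 to 50 kb and 2.05% under 10 kb. The median log2 folds of the 3 classes were -0.20, 0.05 and 0.32. In the same order, the shares called lower were 2.02%, 1.25% and 0.710% at pachytene, 0.993%, 0.848% and 0.592% in the pre-meiotic table, and 1.95%, 1.79% and 1.32% at leptotene/zygotene. In the tables' coordinates Sycp1 lies at chr3:102622421-102740023, Sycp2 at chr2:178079997-178142390, Tex12 at chr9:50365252-50369373, Hormad1 at chr3:95363598-95391593, Hormad2 at chr11:4245816-4341108, Syce1 at chr7:147963127-147973753 and Syce2 at chr8:87396009-87417820. The members called lower were Sycp2 (62.4 kb) and Hormad2 (95.3 kb) at day 3, and Sycp1 (118 kb) and Sycp2 at pachytene. Sycp1, the longest locus of the 8, was not called at day 3 (log2 0.13, q = 0.836, the authors' deposited table). Hormad2 was not called at pachytene (log2 -0.07, q = 0.969, the authors' deposited table). Hormad1 spans 28.0 kb, Syce1 10.6 kb and Tex12 4.12 kb. The loci listed for Sycp3 (51.3 kb) and Syce2 (21.8 kb) are joint loci shared with Chpt1 and Gcdh, so they are not the spans of these genes alone. In the pre-meiotic table Tex12, the shortest locus of the 8, was called as well as Sycp1 and Sycp2. The part of locus span in the members' folds was not tested.

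**Figure D5:**
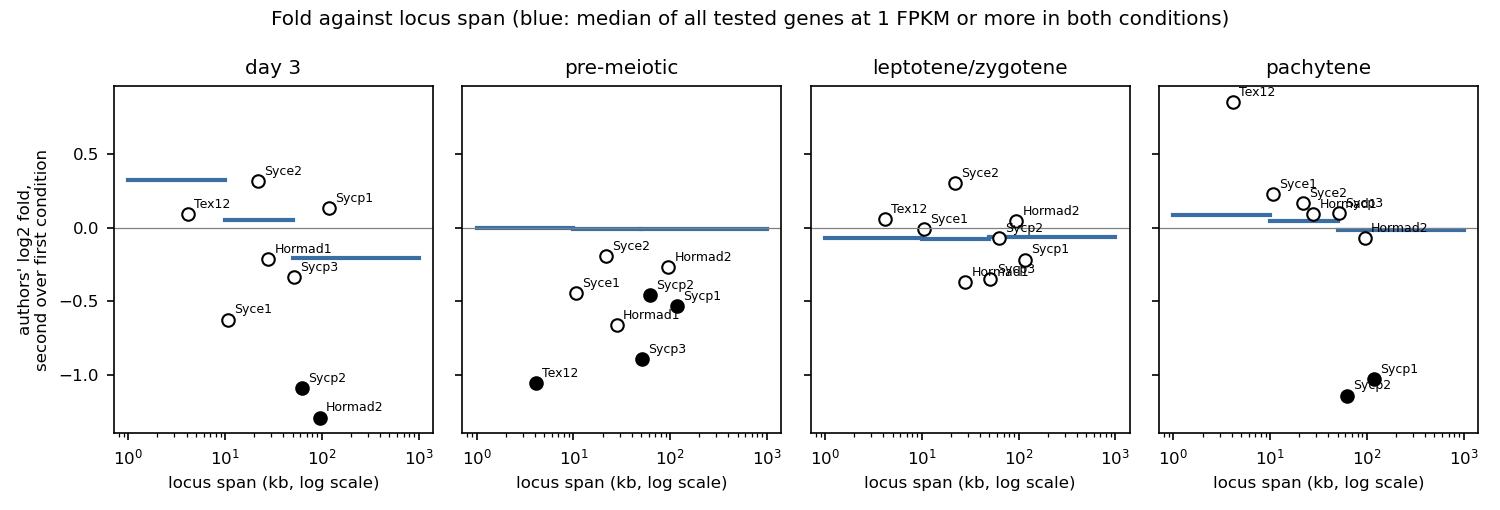
Log2 fold of the second over the first condition against locus span in kb on a log axis, with 1 panel per table, the 8 members as labelled points (filled where called, Sycp3 and Syce2 at the span of the joint locus shared with a neighbour) and the medians of all genes in 3 span classes as lines. At day 3 the class medians go down with span, from 0.32 to -0.20, and in the other tables they lie within 0.1 of each other.

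Across the 8 columns, the genes with profiles most like the mean of the members' standardised log2(FPKM + 0.1) were Sugp1 (Pearson r 0.989), Rbm44 (0.989), Abo (0.986), Fbxw7 (0.985), Fgfr1op (0.984), Tdrd9 (0.984), Ccdc88c (0.983) and Naa11 (0.983), among 15105 genes compared. These are descriptions over 8 points that share 4 tables and no replicates. Tdrd9, a piRNA pathway helicase gene, had 3.10 and 5.22 FPKM in the second and first conditions at day 3, 16.4 and 19.5 FPKM in the pre-meiotic table, 19.7 and 22.7 FPKM at leptotene/zygotene, and 49.4 and 47.9 FPKM at pachytene. Among the members, Sycp3 had an r of 0.997 with the mean profile, Sycp2 0.982, Hormad2 0.973, Hormad1 0.961, Sycp1 0.955 and Syce1 0.921. Syce2 and Tex12, at 0.585 and 0.527, followed it least. Each member is itself part of the mean it is compared with.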

How the data were processed

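Messenger RNA was measured in 8 of the 10 libraries, and the 2 small RNA libraries are not analysed here. Total RNA, extracted by Trizol, went into TruSeq libraries, and no step that keeps the strand is named in the labels' protocols. The submitters' processing notes name Cuffdiff, Cufflinks 1.1.0, Bowtie 0.12.7 and TopHat 1.3.0. No source used here names the genome build. The authors deposited FPKM per condition, per the file headers. Per the file headers the authors also deposited a log2 fold and a test statistic, a score whose sign runs opposite to the fold. The p-value and q-value were deposited by the authors with Cuffdiff, per the file headers and processing notes. Absolute depth is unknown. Among genes under 1 FPKM the commonest ratio would put the second library at 0.851, 1.49, 1.09 and 1.05 times the first's depth in stage order, the last being weakly determined.

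Folds were computed as log2((second + 0.1)/(first + 0.1)) with a floor of 1 FPKM for background shares, in Python 3.11.15 with pandas 2.3.3, NumPy 2.4.6 and Matplotlib 3.10.9. The fold arithmetic alone was checked, on known folds planted in a measured column without added noise. FPKM columns were tied to stages by table name, not to genotypes. Of 36806 gene IDs, 31840 matched current names. Named genes are all members, called partners (or the 2 farthest from 0 where none is called) and the 8 closest profiles. Members and lists were chosen with earlier results of these data known. Overlapping genes, neighbours and promoter words were chosen after their values or sequences were seen. Syce3, of the partner list, and Rhox5, of the Sertoli markers, were not found under those symbols.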

Additional observations from a re-analysis of the deposited data

How the results depend on the processing

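With 1 library per genotype and stage, leaving out a replicate was not possible. No paired analysis was possible because the condition columns carry no replicate number and each comparison holds 1 library per condition. Of 192 alternative values of the members' log2 folds, 15 changed sign. Centring the pre-meiotic folds on the median of the leptotene and zygotene markers (-0.76) turned 6 of 8 members, among them the called genes Sycp1 (0.24) and Sycp2 (0.31), and germline centring turned 1, Syce2. At day 3 either marker centring turned 2, Sycp3 and Hormad1. The other 4 were folds near 0 at leptotene/zygotene, of Syce1, Tex12 and Hormad2. The day 3 shift of the leptotene and zygotene markers, -0.37, was the median of all 9. Over the 7 at 1 FPKM or more the median was -1.18. With the same pseudocount of 0.1 FPKM every member lay above it, the lowest being Hormad2 at -1.16. Without a pseudocount the authors' log2 fold of Hormad2 was -1.29. Centring on the median of -1.18 was not run. Centring on 3 germline markers took off -0.44 at day 3, -0.23 in the pre-meiotic table, -0.06 at leptotene/zygotene and 0.08 at pachytene. Members at least 2-fold lower at day 3 numbered 0, against 2, with a pseudocount of 1 FPKM and with either marker centring. In the pre-meiotic table the count was 0, against 1, with either marker centring, and 3 at a threshold of 1.5-fold. At a q-value of at most 0.01 the members called at day 3 numbered 1, against 2, and the partners called at pachytene 1, against 2. With q-values recomputed over genes at 1 FPKM or more, partners called numbered 5, against 3, in the pre-meiotic table and 1, against 0, at leptotene/zygotene. The cause was not tested. Median implied errors of 0.31, 0.25, 0.41 and 0.46 in stage order limit which folds could be called.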
